A study of Mus musculus with 4 samples.

Results

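The genes described here carry names of G protein-coupled receptors, the membrane receptors through which macrophages sense chemokines, complement fragments, nucleotides, amines and lipids. They were chosen by symbol, as names that begin with Gpr, P2ry, Ptger, Ccr, Cxcr, Cx3cr, Ffar, S1pr, Lpar, Hcar, Adora, Adrb, Htr2, C3ar, C5ar, Fpr, Ltb4r, Cysltr or Hrh followed by digits or small letters, and by brightness. To be kept, a gene had to reach log2 7.09, the median of the whole table, on at least 1 of the 4 arrays. Of 138 measured genes that match the names, 65 were kept, among 11174 kept genes of 19938 measured in all. The other 73 lay below the threshold on every array. 2 symbols among the 65 were listed as coding for no receptor of this class, namely Gpr89, a Golgi pH regulator, and Gprin2, a protein that binds G protein alpha subunits. The dim Gprin1 and Gprin3 belong to the same family as Gprin2. The other names were taken as they stand, and some, such as Gpr155 and Gpr137b, code for lysosomal proteins, as given below.

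RNA came from adherent peritoneal macrophages of wild type C57BL/6 mice aged 8 to 12 weeks, collected 3 days after 1 mL of 4% thioglycolate, an irritant that draws these cells into the cavity. The cells were kept for 6 h with 500 µM palmitic acid (16 carbons, 0 double bonds), 500 µM oleic acid (18 carbons, 1 double bond) or 500 µM linoleic acid (18 carbons, 2 double bonds), each bound to bovine serum albumin (BSA), or with a control labelled as BSA only, for which the protocol names an ethanol and KOH vehicle. RNA of 3 samples was pooled for 1 array in each of the 4 groups, and the labels do not say whether these samples came from separate mice. With 1 array per group no test, interval or p-value of a difference exists: each difference given is that of 1 array from another.

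The deposited values are on a log2 scale, where a step of 1 is 2-fold and 0.58 is 1.5-fold. A gene is counted as higher or lower when the difference of its 2 values is at least 1.5-fold. Probes differ in how well they bind, so a brighter gene is not thereby a more abundant one, and levels are compared between arrays within a gene. In pooled bulk RNA, fewer cells of a type and less RNA per cell cannot be told apart. Across the arrays the median over all probes lay between log2 7.07 and 7.13, and array pairs correlated between r = 0.991 and 0.996 over all probes. All 12 macrophage markers were kept, with medians of log2 12.16 with palmitic acid, 12.14 with oleic acid, 12.05 with linoleic acid and 12.03 in the control. Gene by gene, however, 9 of the 12 lay below the control with palmitic acid, with a median difference of -0.10. Of the markers of neutrophils (8 measured), B cells (5), T or NK cells (8), mast cells (7), eosinophils (5) and dendritic cells (5), 1 in each list reached the threshold. Of the 11 measured markers of mesothelial cells and fibroblasts 8 reached it.

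G protein-coupled receptors cross the membrane 7 times and, once bound by a ligand, activate a G protein whose alpha subunit sets the downstream signal. Subunits of the Gi class lower cyclic AMP, those of the Gs class raise it and those of the Gq class release calcium. Receptor kinases and arrestins then end the signal, and regulators of G protein signalling (RGS proteins) speed up the shut-off of the alpha subunit. In macrophages these receptors steer migration and set the strength of inflammatory responses.

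Within a gene, the range over the 4 arrays was 0.33 at the median of the 65 genes, from 0.06 (Gpr20) to 1.53 (Gpr18). The palmitic acid array held the lowest of the 4 values in 36 of the 65 genes, 55.4%, beside 38.1% of all kept genes. The oleic acid array held the highest value in 28 of them, 43.1%, beside 26.9% of all kept genes. In all, 21 of the 65 genes (32.3%) differed by at least 1.5-fold in at least 1 of the 6 comparisons, beside 5.99% of all kept genes, and 44 in none. The brightness rule used the highest value alone, and 57 of the 65 genes passed it on all 4 arrays. The 8 that passed on some arrays only were Cxcr1, Gpr146, Gpr179, Gpr21, Gpr75, Lpar2, S1pr1 and S1pr5. Just inside the threshold, by their highest value, were S1pr5 (7.14), Gpr75 (7.16) and Gpr179 (7.20), and just outside it were Gpr162 (7.08), Gpr83 (7.07) and Cysltr2 (7.07).

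**Figure D1:**
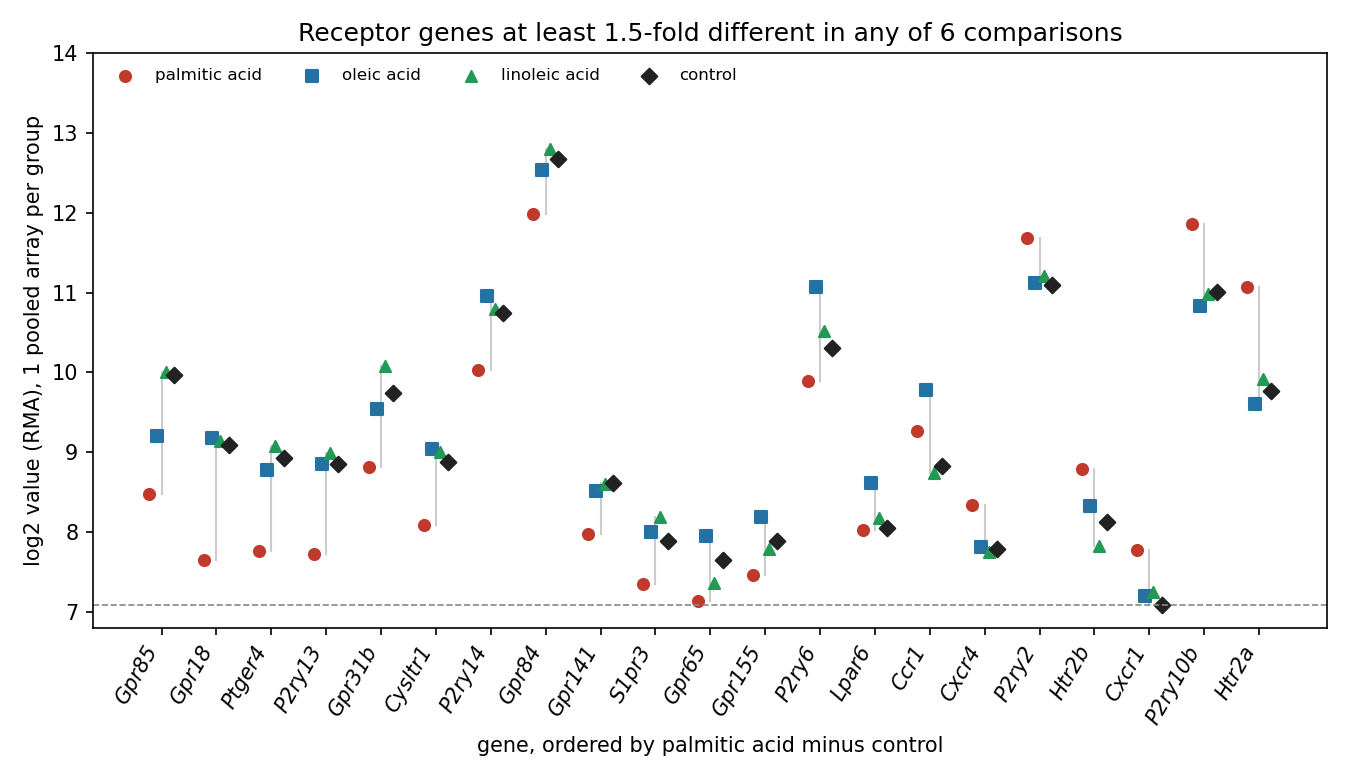
Values of the 21 genes that differed by at least 1.5-fold in any of the 6 comparisons. The vertical axis gives log2 values, each point is 1 pooled array, the grey line spans the 4 arrays and the dashed line is the brightness threshold of log2 7.09. From Gpr85 to Gpr141 on the left the palmitic acid point lies below the other 3, and for P2ry10b and Htr2a on the right it lies above them.

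The sequences around the annotated starts of 5 of these genes are shown, 4 lower and 1 higher in the palmitic acid array than in the control, because they differ in base composition and in the motifs they hold. Each runs from 250 bases before to 50 bases after a RefSeq transcript start, 5′ to 3′ on the gene's strand, in build GRCm38.p6. Gpr18 (chr14:121915839-121916138), Gpr85 (chr6:13839893-13840192), Ptger4 (chr15:5244138-5244437) and P2ry13 (chr3:59210833-59211132) are on the minus strand and Htr2a (chr14:74640624-74640923) on the plus strand. Capitals mark 2 motifs on either strand, the GC box GGGCGG and the core GAGGAAG that the macrophage factor PU.1 binds.
Gpr18: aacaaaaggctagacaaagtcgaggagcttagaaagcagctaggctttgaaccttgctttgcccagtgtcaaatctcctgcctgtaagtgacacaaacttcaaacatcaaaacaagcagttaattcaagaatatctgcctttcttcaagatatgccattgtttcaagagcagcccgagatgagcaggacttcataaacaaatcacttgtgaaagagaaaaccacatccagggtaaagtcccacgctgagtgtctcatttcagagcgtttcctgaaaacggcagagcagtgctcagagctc
Gpr85: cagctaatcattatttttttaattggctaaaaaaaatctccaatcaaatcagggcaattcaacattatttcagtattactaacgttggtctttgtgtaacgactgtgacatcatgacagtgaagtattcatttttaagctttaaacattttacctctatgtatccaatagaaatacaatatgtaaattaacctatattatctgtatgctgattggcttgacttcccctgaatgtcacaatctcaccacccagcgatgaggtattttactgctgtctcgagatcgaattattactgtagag
Ptger4: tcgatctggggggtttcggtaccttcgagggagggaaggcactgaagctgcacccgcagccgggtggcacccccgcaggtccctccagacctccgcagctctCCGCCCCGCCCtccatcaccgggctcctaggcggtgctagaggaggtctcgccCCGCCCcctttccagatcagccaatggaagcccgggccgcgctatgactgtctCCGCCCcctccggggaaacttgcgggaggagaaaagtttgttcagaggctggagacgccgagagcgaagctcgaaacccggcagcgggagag
P2ry13: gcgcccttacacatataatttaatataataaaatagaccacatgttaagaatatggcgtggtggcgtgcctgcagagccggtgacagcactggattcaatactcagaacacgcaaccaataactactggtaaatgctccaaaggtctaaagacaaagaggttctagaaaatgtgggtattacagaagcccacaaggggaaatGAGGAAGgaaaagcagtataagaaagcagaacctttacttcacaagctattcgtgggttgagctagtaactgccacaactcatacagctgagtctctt
Htr2a: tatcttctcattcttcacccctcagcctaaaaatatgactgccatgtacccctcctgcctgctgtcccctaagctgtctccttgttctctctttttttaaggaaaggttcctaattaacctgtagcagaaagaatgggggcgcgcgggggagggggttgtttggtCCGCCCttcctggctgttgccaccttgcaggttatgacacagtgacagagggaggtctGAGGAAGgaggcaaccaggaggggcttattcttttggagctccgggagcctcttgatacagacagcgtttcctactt

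The windows held 44.0% G and C for Gpr18, 33.3% for Gpr85, 67.0% for Ptger4, 42.3% for P2ry13 and 52.0% for Htr2a, beside a median of 52.7% over all 32851 RefSeq windows of this length. Of the 65 genes 52 had such a window, 73 windows in all, some of them overlapping windows of 1 gene. Of the 9 genes lower with palmitic acid 8 had one, and 10 of their 11 windows lay below that median, beside 5 of the 8 windows of the genes higher with palmitic acid and 28 of the 73. These are counts of windows and not of genes, and P2ry14 alone gave 4 of the 11 and P2ry10b 3 of the 8. The median share of G and C was 44.0% in the lower and 46.5% in the higher genes, so that low shares were found in both. A GC box stood in 1 of these 11 windows (Ptger4), in 33 of the 73 and in 35.7% of all windows. For the 5 genes higher with palmitic acid it stood in 4 of 8 windows. The PU.1 core stood in 3 of the 11, in 14 of the 73 and in 13.6% of all windows. Other motifs searched on both strands were AP-1 (TGANTCA), CRE (TGACGTCA), C/EBP (TTGCNNAA), the NF-kB and ISRE consensus motifs, the E-box (CACGTG) and the TATA box (TATAAA), which stood in 2, 0, 1, 0, 1, 0 and 2 of the 11 windows. Their shares of all windows were 7.81%, 1.79%, 10.8%, 0.411%, 3.44%, 7.15% and 13.6%. A match is a description of letters and not a binding site, and the GC box and the composition were singled out after the windows had been read.

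In the palmitic acid array 9 of the 65 genes were lower by 1.5-fold or more against the control (13.8%), beside 1.41% of all kept genes. These were Gpr85, Gpr18, Ptger4, P2ry13, Gpr31b, Cysltr1, P2ry14, Gpr84 and Gpr141. Another 5 were at least 1.5-fold higher (7.69%, beside 2.17% of all kept genes), namely Htr2a, P2ry10b, Cxcr1, Htr2b and P2ry2. The median difference over the 65 genes was -0.09, beside 0.0006 over all kept genes, and the median size of the difference was 0.20, beside 0.13. Of the 30 genes under log2 8 in the control 1 was higher and 0 lower, beside 1.30% and 0.53% of all kept genes this dim. Of the 35 brighter genes 4 were higher and 9 lower, beside 2.54% and 1.79% of all kept genes as bright. P2ry2 stood at the threshold with a difference of 0.59 and fell short of it, at 0.55, when the quantile normalisation was repeated.

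**Figure D2:**
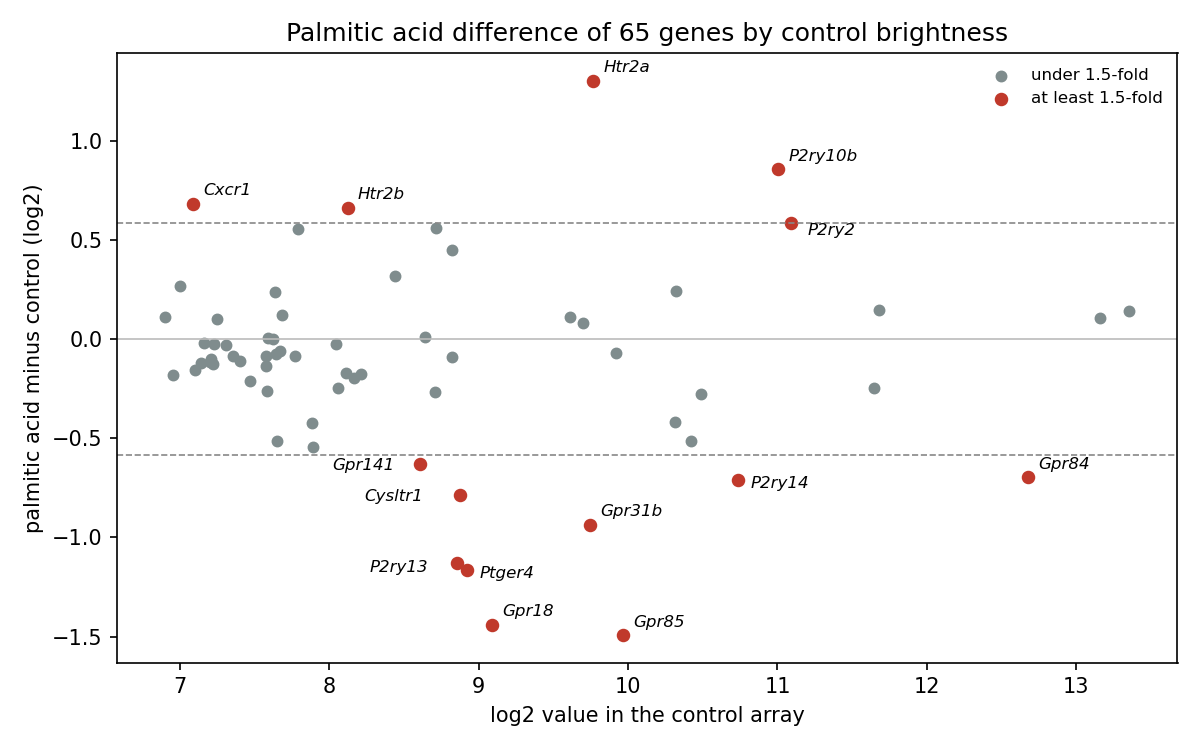
Palmitic acid minus control, as a difference of log2 values, against the log2 value in the control array for the 65 genes. Red points differ by at least 1.5-fold (dashed lines) and are named, and of these all but Cxcr1 lie above log2 8 in the control.

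In the oleic acid array Ccr1 and P2ry6 were at least 1.5-fold higher than in the control, 2 of the 65 (3.08%, beside 0.376% of all kept genes), and Gpr85 alone was lower (1.54%, beside 0.34%). The median difference was 0.05, beside 0.01 over all kept genes. In the linoleic acid array 0 genes were 1.5-fold higher and 0 lower than in the control, beside 0.0358% of all kept genes each way. Differences there ran from -0.29 (Htr2b) to 0.40 (Gpr21), with a median of 0.05, beside 0.04 over all kept genes. Gpr21 (7.30) and Lpar2 (7.23) reached the brightness threshold on the linoleic acid array alone. The filter thus kept both through the array where they were highest. The 3 comparisons share the control array.

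**Figure D3:**
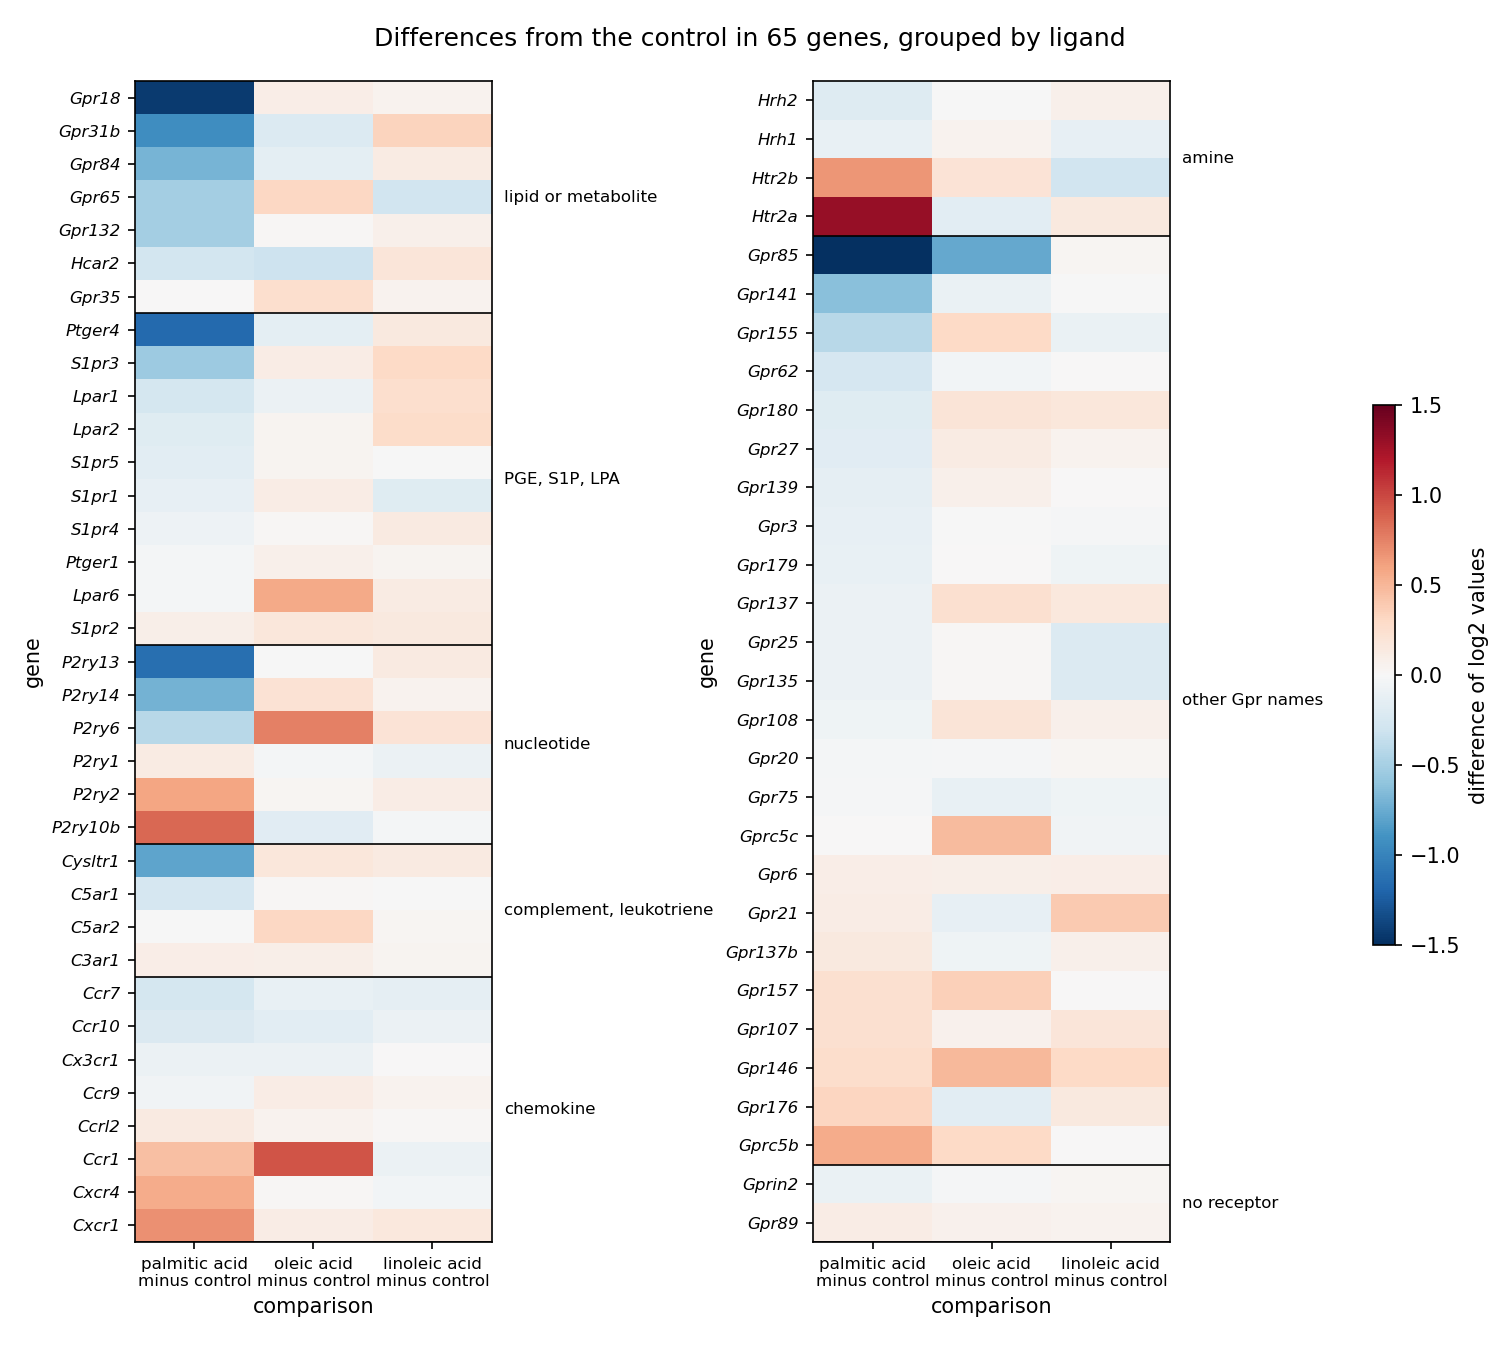
Differences of log2 values from the control for all 65 genes (rows) with palmitic, oleic and linoleic acid (columns), grouped by what the receptors bind. Blue is lower and red higher than in the control. The darkest cells are Gpr85 (-1.49), Gpr18 (-1.44) and Htr2a (1.30) in the palmitic acid column. The linoleic acid column stays between -0.29 and 0.40, the latter in Gpr21, which like Lpar2 (0.27) was kept through that array alone.

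Receptors for lipids, metabolites and protons include those that bind fatty acids and their products. Of the 7 kept genes of this list 3 were lower by 1.5-fold or more and 0 higher with palmitic acid. Over all kept genes the shares were 1.41% lower and 2.17% higher. With palmitic acid 6 of the 7 lay below 0, and the list median was -0.51, beside 0.01 with oleic acid and 0.07 with linoleic acid. Gpr18, reported as a receptor for N-arachidonoyl glycine and resolvin D2, had log2 7.65 on the palmitic, 9.18 on the oleic and 9.14 on the linoleic acid array, against 9.09 in the control. The palmitic acid value was 2.71-fold below the control, while the other 3 arrays lay within 0.09 of each other.
Gpr84, a receptor for medium-chain fatty acids that activated macrophages induce, had 11.98 on the palmitic, 12.53 on the oleic and 12.80 on the linoleic acid array, against 12.68 in the control. It was 1.62-fold lower with palmitic acid than in the control, and the oleic acid value lay between (-0.15). Gpr31b, whose human relative GPR31 binds the hydroxy fatty acid 12-HETE, had 8.81 on the palmitic, 9.54 on the oleic and 10.08 on the linoleic acid array, against 9.75 in the control. Its 4 arrays ran in the same order as those of Gpr84, and both of its probes did so, at -0.94 and -0.93 for palmitic acid.

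Gpr132, which responds to lysolipids and oxidised fatty acids, and Gpr65, a proton sensor, each lay at -0.51 with palmitic acid, short of 1.5-fold. Gpr65 had 7.13 on the palmitic, 7.95 on the oleic and 7.36 on the linoleic acid array, against 7.65 in the control. The oleic acid array was thus the highest for Gpr65 and the palmitic acid array the lowest. Hcar2, the receptor for nicotinic acid and beta-hydroxybutyrate, was the only kept gene of the list below the control with both palmitic (-0.28) and oleic acid (-0.31) by more than 0.25, and Gpr35 lay at 0.01 and 0.25. The receptors for long-chain fatty acids themselves were below the threshold on every array and were picked here after their values were seen. Ffar1 had 6.47 on the palmitic, 6.49 on the oleic and 6.48 on the linoleic acid array, against 6.39 in the control. Ffar4 had 6.06, 5.97 and 5.92 with the 3 fatty acids in the same order, against 5.96 in the control. At this brightness, differences of either gene cannot be read.

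Among receptors for prostaglandin E2, sphingosine 1-phosphate and lysophosphatidic acid, Ptger4 stood out. It codes for EP4, a Gs-coupled prostaglandin E2 receptor that dampens cytokine release by macrophages. Ptger4 had 7.76 on the palmitic, 8.78 on the oleic and 9.07 on the linoleic acid array, against 8.92 in the control, a 2.24-fold lower value with palmitic acid. Of the 10 kept genes of this list 1 passed 1.5-fold downwards with palmitic acid and 0 upwards, beside 1.41% and 2.17% of all kept genes. With palmitic acid 9 of the 10 lay below 0, and the median was -0.14, beside 0.06 with oleic acid and 0.14 with linoleic acid. Lpar2, S1pr1 and S1pr5 were under the brightness threshold on the palmitic acid array (6.78, 7.02 and 6.94). The filter kept them through arrays where they were higher, for Lpar2 the linoleic acid array alone (7.23). Their place below 0 is therefore partly set by the filter. S1pr3, a sphingosine 1-phosphate receptor, had 7.35 on the palmitic, 8.00 on the oleic and 8.19 on the linoleic acid array, against 7.89 in the control, and its -0.54 fell short of 1.5-fold. Lpar6, a lysophosphatidic acid receptor, had 8.02, 8.61 and 8.17 with palmitic, oleic and linoleic acid, against 8.05 in the control, so that the oleic acid array alone stood away from the others. Ptger2, which codes for the other Gs-coupled prostaglandin E2 receptor and was also picked after its values were seen, was below the threshold on every array.

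The list of nucleotide receptors, which holds P2ry10b by its name only, moved in both directions with palmitic acid. Of its 6 kept genes 2 were at least 1.5-fold higher, P2ry10b and P2ry2, and 2 lower. Over all kept genes the shares were 2.17% higher and 1.41% lower. After the repeated quantile normalisation P2ry2 fell short, so that P2ry10b alone was higher. P2ry13, a receptor for ADP, had 7.72 on the palmitic, 8.85 on the oleic and 8.99 on the linoleic acid array, against 8.85 in the control. P2ry14, a receptor for UDP-glucose, had 10.03 on the palmitic, 10.96 on the oleic and 10.79 on the linoleic acid array, against 10.74 in the control. Palmitic acid gave the lowest value of both, 2.19-fold below the control for P2ry13 and 1.63-fold for P2ry14.
P2ry6, the UDP receptor tied to phagocytosis in microglia, had 9.89 on the palmitic, 11.07 on the oleic and 10.51 on the linoleic acid array, against 10.31 in the control. It was 1.69-fold higher with oleic acid, while palmitic acid lay below the control (-0.42). P2ry2, which senses ATP and UTP, is the gene next to P2ry6 on chromosome 7 and had 11.68 on the palmitic, 11.12 on the oleic and 11.20 on the linoleic acid array, against 11.09 in the control. The neighbours thus had their highest values on different arrays.

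P2ry10b, a relative of the lysophosphatidylserine receptor gene P2ry10, had 11.86 on the palmitic, 10.83 on the oleic and 10.98 on the linoleic acid array, against 11.01 in the control. It was 1.81-fold higher with palmitic acid than in the control, and the other 3 arrays lay between 10.83 and 11.01. P2ry10 itself, the adjacent gene on chromosome X, was below the threshold on every array, at most 3.97. Probes of such related genes can bind each other's transcripts. P2ry1, a further ADP receptor, lay at 0.12 with palmitic acid.

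Of the anaphylatoxin receptor genes C3ar1 and C5ar1 were bright, C5ar2 was dim, and all 3 lay under 1.5-fold from the control. C3ar1 had 13.27 on the palmitic, 13.26 on the oleic and 13.20 on the linoleic acid array, against 13.16 in the control. C5ar1 had 11.40, 11.67 and 11.64 with palmitic, oleic and linoleic acid, against 11.65 in the control. C5ar2 had 7.62, 7.93 and 7.64 on these arrays, against 7.62 in the control. Cysltr1, a receptor for cysteinyl leukotrienes, was the 1 gene of the 4 in this list that passed 1.5-fold, beside 1.41% of all kept genes lower with palmitic acid. It had 8.09 on the palmitic, 9.04 on the oleic and 9.0 on the linoleic acid array, against 8.87 in the control, a 1.72-fold lower value with palmitic acid.

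Of the 8 kept chemokine receptor genes, 1 was at least 1.5-fold higher with palmitic acid (Cxcr1), 1 with oleic acid (Ccr1), and 0 were lower with either. Over all kept genes 2.17% were higher with palmitic and 0.376% with oleic acid, and 1.41% and 0.34% were lower. Ccr1, a receptor for CCL3 and CCL5 that draws monocytes to sites of inflammation, had 9.27 on the palmitic, 9.77 on the oleic and 8.74 on the linoleic acid array, against 8.82 in the control. It was 1.93-fold higher with oleic acid, and palmitic acid lay between (0.45). Its next gene on chromosome 9, the related Ccr1l1, was below the threshold. Cxcr1 had 7.77 on the palmitic, 7.20 on the oleic and 7.25 on the linoleic acid array, against 7.09 in the control, where it lay just under the threshold. Cxcr4, the receptor for CXCL12, had 8.34 on the palmitic, 7.81 on the oleic and 7.75 on the linoleic acid array, against 7.79 in the control, and its 0.56 fell just short of 1.5-fold. Palmitic acid gave the highest value of both CXC receptor genes. Ccrl2, a receptor that holds the attractant chemerin at the cell surface and does not signal through G proteins, was bright, with 13.49, 13.41 and 13.38 with palmitic, oleic and linoleic acid, against 13.35 in the control. Ccr2, the monocyte receptor for CCL2, picked after its values were seen, was at most 4.62.

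Both serotonin receptor genes kept were higher with palmitic acid, 2 of the 4 amine receptor genes, beside 2.17% of all kept genes. Htr2a, a Gq-coupled receptor, had 11.07 on the palmitic, 9.61 on the oleic and 9.91 on the linoleic acid array, against 9.76 in the control, a 2.47-fold higher value with palmitic acid. Htr2b, a close relative, had 8.78 on the palmitic, 8.33 on the oleic and 7.83 on the linoleic acid array, against 8.12 in the control, 1.58-fold higher with palmitic acid. Palmitic acid gave the highest value of both, and the other arrays were ordered differently in the 2 genes. The histamine receptor genes Hrh1 (-0.11) and Hrh2 (-0.20) were close to the control with palmitic acid.

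Among the 24 other kept genes with Gpr names, 2 passed 1.5-fold downwards with palmitic acid and 0 upwards, and the median was -0.08. Over all kept genes the shares were 1.41% lower and 2.17% higher. Gpr85, an orphan receptor strongly conserved among vertebrates and known from brain, had 8.48 on the palmitic, 9.20 on the oleic and 10.00 on the linoleic acid array, against 9.97 in the control. It was 2.81-fold lower with palmitic acid and 1.70-fold lower with oleic acid, with linoleic acid at 0.03 from the control. Gpr141, an orphan receptor, had 7.98 on the palmitic, 8.51 on the oleic and 8.61 on the linoleic acid array, against 8.61 in the control. Gpr155, which codes for a lysosomal cholesterol sensor, had 7.46 on the palmitic, 8.18 on the oleic and 7.79 on the linoleic acid array, against 7.88 in the control, below the control with palmitic acid (-0.42) and above it with oleic acid (0.30). Gpr137b, which codes for a lysosomal membrane protein, had 11.82, 11.62 and 11.75 with palmitic, oleic and linoleic acid, against 11.68 in the control, and lay within 0.15 of the control on each array. Gpr89 differed by at most 0.11 and Gprin2 by at most 0.10 from the control.

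Against the other fatty acids, at the same dose and time, palmitic acid differed in more of these genes than linoleic and oleic acid did from each other. Compared with oleic acid, 12 of the 65 genes were lower by 1.5-fold or more (18.5%, beside 1.66% of all kept genes) and 2 higher (3.08%, beside 1.82%). The 12 were Gpr18 (-1.53), P2ry6 (-1.17), P2ry13 (-1.12), Ptger4 (-1.02), Cysltr1 (-0.95), P2ry14 (-0.93), Gpr65 (-0.82), Gpr31b (-0.73), Gpr85 (-0.73), Gpr155 (-0.72), S1pr3 (-0.66) and Lpar6 (-0.59), and the 2 were Htr2a (1.46) and P2ry10b (1.03). The median difference was -0.17, beside -0.02 over all kept genes.

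Compared with linoleic acid, 11 genes were lower by 1.5-fold or more (16.9%, beside 2.01% of all kept genes) and 4 higher (6.15%, beside 1.58%). Lower were Gpr85 (-1.52), Gpr18 (-1.49), Ptger4 (-1.31), Gpr31b (-1.27), P2ry13 (-1.27), Cysltr1 (-0.92), S1pr3 (-0.84), Gpr84 (-0.82), P2ry14 (-0.76), Gpr141 (-0.63) and P2ry6 (-0.62), of which Gpr141 (-0.58) and P2ry6 (-0.57) fell short when each array was centred on its median. Higher were Htr2a (1.15), Htr2b (0.95), P2ry10b (0.88) and Cxcr4 (0.60). The median difference was -0.12, beside -0.03 over all kept genes.

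Linoleic acid has 1 double bond more than oleic acid at equal chain length. Gpr85 was 1.74-fold higher with linoleic acid, 1 of the 65 genes (1.54%, beside 0.707% of all kept genes). Ccr1 (-1.03) and Gpr65 (-0.59) were at least 1.5-fold lower with linoleic acid, 2 of the 65 (3.08%, beside 0.34%). After the repeated quantile normalisation they were 4, with P2ry6 (-0.60) and Gprc5c (-0.59), beside 0.501% of all kept genes. The median difference was -0.03, beside 0.02 over all kept genes. Each of these 3 comparisons shares an array with the other 2, and no interval of any difference can be had.

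**Figure D4:**
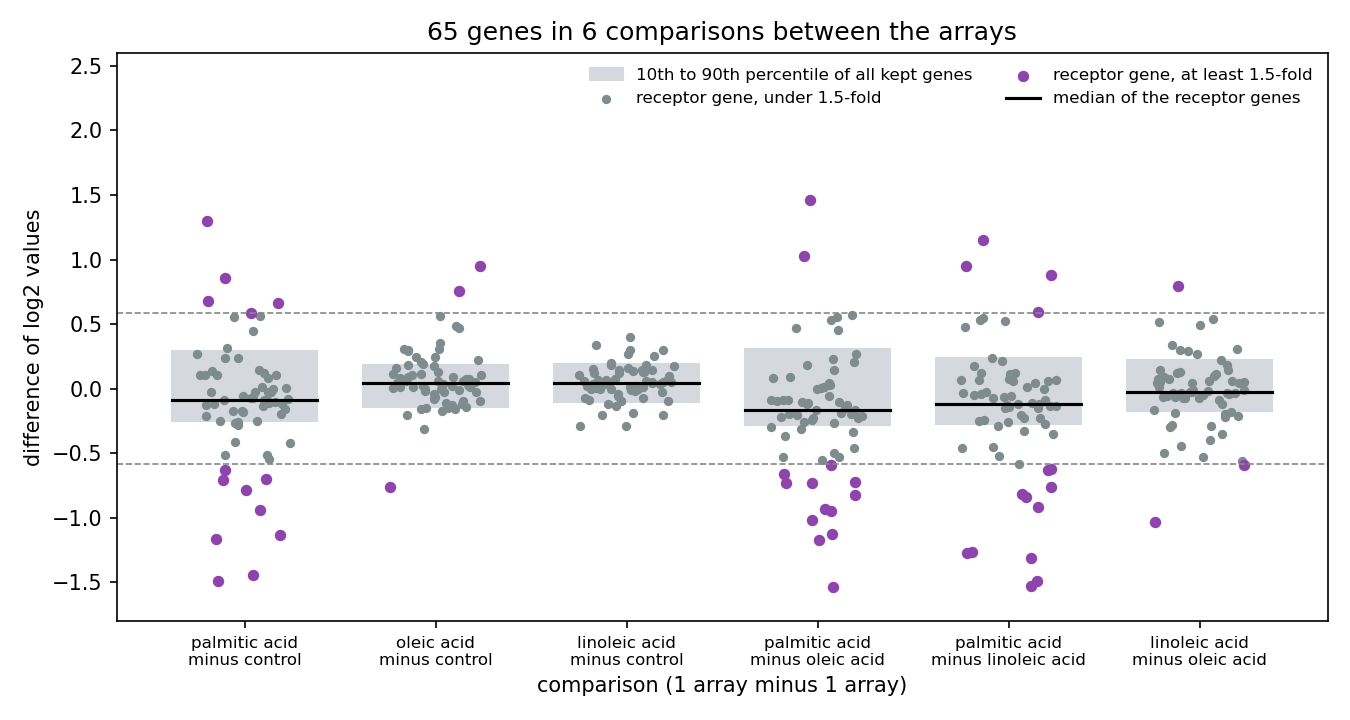
Differences of log2 values of the 65 genes in 6 comparisons between arrays, horizontally jittered. Purple points are at least 1.5-fold apart (dashed lines), black bars are the medians of the 65 genes and grey boxes span the 10th to 90th percentile of all kept genes. The 3 comparisons with palmitic acid on top hold 9, 12 and 11 lower genes, beside 1 lower gene with oleic acid and 0 with linoleic acid against the control. Over all kept genes 1.41%, 1.66% and 2.01% were lower in the former, beside 0.34% and 0.0358% in the latter, so that these also differed between comparisons.

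Genes that act downstream of the receptors were read as well. The lists kept 19 G protein subunit genes, 18 adenylyl cyclase, phosphodiesterase and protein kinase A genes and 14 phospholipase C and calcium release genes. Of these, 0 were 1.5-fold higher or lower than in the control with any fatty acid. Over all kept genes 2.17% were higher and 1.41% lower with palmitic acid, and 0.376% and 0.34% with oleic acid. With linoleic acid the share was 0.0358% each way. At such shares few calls would be met in lists of this size. The medians of these lists with palmitic acid were -0.06, -0.04 and -0.11. Short of the limit lay Plcb4, a phospholipase C gene, at -0.577 with oleic acid. Pik3r6, a regulatory subunit of a G protein-activated lipid kinase, lay at -0.56 with palmitic acid, and at -0.62 after the repeated quantile normalisation. Both were picked after their values were seen. Of the 8 RGS genes 1 was at least 1.5-fold lower with palmitic acid, beside 1.41% of all kept genes. This was Rgs18 (-0.86), at 7.32 on the palmitic, 7.95 on the oleic and 8.01 on the linoleic acid array, against 8.17 in the control. Of the 9 receptor kinase and arrestin genes, Arrdc3, an alpha-arrestin, was lower with palmitic acid (-1.24) and higher with oleic acid (1.07). Over all kept genes 1.41% were lower with palmitic acid and 0.376% higher with oleic acid. Of 25 kept G protein-coupled receptor genes with other names, 1 was at least 1.5-fold higher with palmitic acid, beside 2.17% of all kept genes. This was the Wnt receptor gene Fzd7 (0.69). Of the 25, 0 were lower, beside 1.41% of all kept genes, with a median of -0.05.

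Some ligands and ligand-making enzymes were lower with palmitic acid as well. Of the 21 kept chemokine genes 4 were at least 1.5-fold lower and 0 higher, namely Cxcl9 (-1.29), Ccl22 (-1.16), Cxcl11 (-0.90) and Ccl17 (-0.69). Over all kept genes 1.41% were lower and 2.17% higher with palmitic acid. Cxcr3, the receptor of CXCL9 and CXCL11, and Ccr4, the receptor of CCL17 and CCL22, were below the threshold on every array. The genes of the CCR1 ligands Ccl3 (0.02) and Ccl5 (0.01) were at log2 13.92 and 13.83 in the control, close to the brightest value on that array, 14.37. Of the 16 kept enzyme genes Hdc, which makes histamine, had 9.27 on the palmitic, 10.46 on the oleic and 10.84 on the linoleic acid array, against 10.54 in the control. Ch25h, which starts the synthesis of the oxysterol ligand of GPR183, lay at -1.02, and Gpr183 was below the threshold. Sphk1, which makes sphingosine 1-phosphate, lay at 0.59, and at 0.54 after the repeated quantile normalisation. Chemokine and enzyme genes lay within 0.49 of the control with oleic acid and within 0.44 with linoleic acid.

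Markers of mesothelial cells and fibroblasts, cells that share the peritoneal cavity, were read as well. All 8 kept markers of the 11 measured lay below the control with palmitic acid, with a median difference of -0.25. Of these 2 were at least 1.5-fold lower, Pdgfrb (-1.29) and Pdgfra (-0.86), beside 1.41% of all kept genes. Over the 11 markers the median value was log2 7.93 on the palmitic, 8.09 on the oleic and 8.17 on the linoleic acid array, against 8.21 in the control. With oleic acid 6 of the 8 lay below 0, with a median difference of -0.04. There 1 was at least 1.5-fold lower, Pdgfrb (-0.71), beside 0.34% of all kept genes. Of the 12 macrophage markers 9 lay below 0 with palmitic acid, with a median of -0.10, and Fcgr1, an antibody receptor gene, differed by -0.66 with palmitic acid and by 0.65 with oleic acid. The part of other cells in the receptor differences was not tested.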

How the data were processed

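Total RNA was measured on 4 Affymetrix whole-transcript arrays, from 100 ng of RNA each with an RNA integrity number above 8.0, per the labels' protocols. The deposited values are log2 expression that the authors made with RMA, per the submitters' processing notes, a method that corrects background, equalises the arrays by quantiles and summarises probes. Neither its version nor a build is given in the sources used here. That they are log2 values follows from their size. The number of arrays limits all precision.

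Of 35556 probes 21789 had exactly 1 gene in the platform annotation, 1621 several and 12146 none listed. Symbols were matched by Entrez ID to a RefSeq table of assembly GRCm38.p6 for 21698 probes, and 0 changed. Probes of a gene were averaged (3 of the 65 genes had more than 1), and genes were kept by their highest value. Matching names with no probe of their own are not analysed here. Differences of log2 values were counted at 1.5-fold, with Python 3.11.15, pandas 2.3.3 and NumPy 2.4.6, and the counting was tested on simulated data. Recovery was required there only of simulated 3-fold changes, and not at the 1.5-fold limit.

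The genes, lists and comparisons were chosen with earlier results of these data known. Named were 5 genes given with the rule, all genes past 1.5-fold in any comparison and the 10 brightest in the control. Added were 3 each side of the threshold, the largest difference of each group and all names listed as no receptor. In the lists of ligands and signalling genes, those past 1.5-fold against the control were named. Other genes given with values, such as Gpr35, P2ry1, C5ar2, Hrh1, Hrh2, Gpr20, Gpr21 and the single cell markers, were picked after their values were seen. Some lists hold few kept genes, and P2ry10b was listed with the nucleotide receptors by name. Alternatives were 2 scalings, 3 filters, the brightest probe, a floor at the threshold and a 2-fold count.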

Additional observations from a re-analysis of the deposited data

Results flagged for a closer look

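Cxcr2, the neighbour of Cxcr1 on chromosome 1 and like it a receptor for neutrophil-attracting chemokines, was dim on every array and so outside the 65 genes. It had 4.75 on the palmitic, 4.60 on the oleic and 4.35 on the linoleic acid array, against 4.16 in the control, and was set aside because its palmitic acid difference of 0.59 passed 1.5-fold in values that entered none of the counts over the 65 genes. Without a brightness filter it is the second chemokine receptor gene counted as higher with palmitic acid, 2 in place of 1. With values below the threshold set to it the difference disappears by construction. The neutrophil markers had a median of log2 6.15 with palmitic acid and 6.19 in the control, with 1 of 8 above the threshold, and their part in this value was not tested.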

How the results depend on the processing

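With each array centred on its median, with a filter on the mean, with the brightest probe, with values below the threshold set to it, and without the names that code for no receptor (the last added after the data were seen), all member counts stayed within 1.5 times of those reported, and the medians over the members, where recomputed, within 0.1. With the quantile normalisation repeated, genes lower with linoleic than oleic acid were 4 in place of 2 (0.501% of all kept genes in place of 0.34%). Without a filter, 3 genes in place of 1 were higher with linoleic than oleic acid (0.481% of all genes). The filter at the 75th percentile left 27 of the genes. It gave 3 genes higher with palmitic acid than in the control (3.31% of the 5889 genes kept) and 2 higher than with linoleic acid (2.38%), 1 lower with linoleic than oleic acid (0.425%), and medians of -0.27 for palmitic minus oleic acid and -0.24 for palmitic minus linoleic acid, with fewer genes tested. At 2-fold, 1 gene was higher and 4 lower with palmitic acid than in the control (44 and 33 of all 11174 kept genes), 0 and 0 with oleic acid (6 and 8), 4 lower with palmitic than oleic acid (32), 1 higher and 5 lower with palmitic than linoleic acid (31 and 51), and 0 higher and 1 lower with linoleic than oleic acid (17 and 8). A filter cannot change the difference of a single gene. Of 282 such differences of named genes, 279 kept their side of the 1.5-fold limit with centring and 278 with the repeated quantile normalisation, and 0 of those past it changed sign. Centring moved Gpr141 (-0.58) and P2ry6 (-0.57) short of it for palmitic minus linoleic acid, and P2ry6 past it for linoleic minus oleic acid (-0.61, and -0.60 after the repeated quantile normalisation, which also brought Gpr132 to -0.60 for palmitic minus linoleic acid). The cause of these moves was not tested. No scaling moved the median of all kept genes by over 0.1. Over all kept genes, higher genes were 60.7% of those past 1.5-fold for palmitic acid minus control, 44.0% for palmitic minus linoleic acid and 67.5% for linoleic minus oleic acid, and centring made the last 2 53.1% and 52.2%. The repeated quantile normalisation made them 51.7%, 44.6% and 50.4%, and gave 42.5% in place of 52.3% for palmitic minus oleic acid. For linoleic acid minus control 4 genes each way became 2 higher and 7 lower with centring, and 2 and 9 with the quantile normalisation. No paired analysis was possible because each group has 1 array. Brightness limits what can be read: 73 matching genes lay below the threshold.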
